A study of Homo sapiens with 3 samples.

Results

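Wnt proteins are secreted lipid-modified ligands that bind Frizzled receptors on the cell surface. With the co-receptors LRP5 and LRP6 they stabilise beta-catenin, which then acts with TCF and LEF factors on target genes, and with other receptors such as ROR1 and ROR2 they act on cell polarity and calcium without beta-catenin. Cells also secrete antagonists. SFRP proteins carry a Frizzled-like domain that binds Wnt ligands, and DKK1 and some of its relatives bind the LRP co-receptors. Fibroblasts of the lung are a known source of both ligands and antagonists.

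The 10 genes described here are the ligands WNT2, WNT5A and WNT5B, the antagonists of the DKK family (DKK1, DKK2, DKK3) and of the SFRP family (SFRP1, SFRP2, SFRP4), and AXIN2. AXIN2 is neither ligand nor antagonist but an intracellular scaffold of the complex that degrades beta-catenin, and it is a widely used readout of that pathway because beta-catenin and TCF factors switch it on. The genes were chosen by name, and every probe set annotated to one of them was taken: 27 of the 54613 probe sets on the array, for 10 of 19775 named genes.

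Expression was measured on Affymetrix arrays in IMR-90 cells, a human fetal lung fibroblast line, 24 h after transfection of 1 siRNA. The control culture received the siRNA labelled GL3, and the other cultures received one of a pair of siRNAs against SETD8, labelled SETD8-1 and SETD8-2. SETD8, now named KMT5A, is the enzyme that adds the first methyl group to lysine 20 of histone H4, and the design asks how gene expression differs when it is knocked down. Each siRNA has 1 array of 1 culture of the same line, so no value has a replicate error, no difference was tested, and each comparison with the control uses the same control array. All values are MAS5 signals, a linear brightness per probe set, and their precision is limited by the number of arrays. A difference is on the log2 scale after values under a floor of 11.7 were raised to it, so that 1 unit is 2-fold. Fewer cells that express a gene and less RNA per cell cannot be told apart in such bulk samples.

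KMT5A signal was lower than in the control on each of its 4 probe sets with both SETD8 siRNAs. The mean log2 difference was -0.64 ± 0.32 (SD over 4 probe sets) with SETD8-1 and -0.39 ± 0.23 (SD over 4 probe sets) with SETD8-2. Single probe sets ranged from -1.12 to -0.42 with SETD8-1 and from -0.68 to -0.21 with SETD8-2. For scale, 95% of genes of similar signal differed by no more than 1.72 between the SETD8 arrays. The 11 fibroblast markers examined were all above the filter on low signal, and their summed signal, most of it from bright collagen, FN1 and VIM probe sets, was 191661 in the control, 187187 with SETD8-1 and 201205 with SETD8-2. Single markers differed more than this sum. The small matrix proteoglycan gene DCN had 20075.4, 7745.9 and 22971.2 (2.59-fold lower with SETD8-1), LUM had 13728.6, 10701.6 and 23797.7, and THY1 had 5200.3, 3480.9 and 6393.0, so that these 3 had the same order of arrays as DKK1. FAP (3873.0, 4939.7 and 2534.6), COL3A1 (25413.6, 26989.2 and 17971.4) and, by a little, COL1A2 had the reverse order, highest with SETD8-1 and lowest with SETD8-2. The other fibroblast markers had neither order. Of 9 epithelial markers 4 passed the filter. All 9 summed to 3425.2, 3281.6 and 6620.6, of which KRT18 alone gave 2987.4, 2962.8 and 6010.1, while EPCAM was lowest with SETD8-1 (157.1, 49.1 and 194.2) and ESRP1 was under the floor on every array. Of 6 endothelial markers 3 passed. All 6 summed to 1386.9, 1582.9 and 2193.3, of which TEK gave 1251.3, 1274.8 and 2033.1. PECAM1 (49.0, 135.0 and 52.7) and VWF (59.7, 130.5 and 80.9) were instead highest with SETD8-1, the median log2 differences of the 3 were 1.13 and 0.44, and CDH5 was under the floor on every array. The markers named were chosen after their values were seen. None of the 4 leukocyte markers with a probe set passed. The part of these markers in the Wnt gene differences was not tested.

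Of the 27 probe sets, 15 were above the filter (a mean log2 value equal to a signal of at least 42.0, the median over all probe sets), and they stood for 8 of the 10 genes. SFRP2 and SFRP4 did not pass on any probe set. The highest SFRP2 signal on any array was 19.2 and the highest SFRP4 signal was 35.1, so neither gene gave a usable difference. For comparison between arrays each gene is represented by its brightest probe set, and the other probe sets are given beside it.

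**Figure D1:**
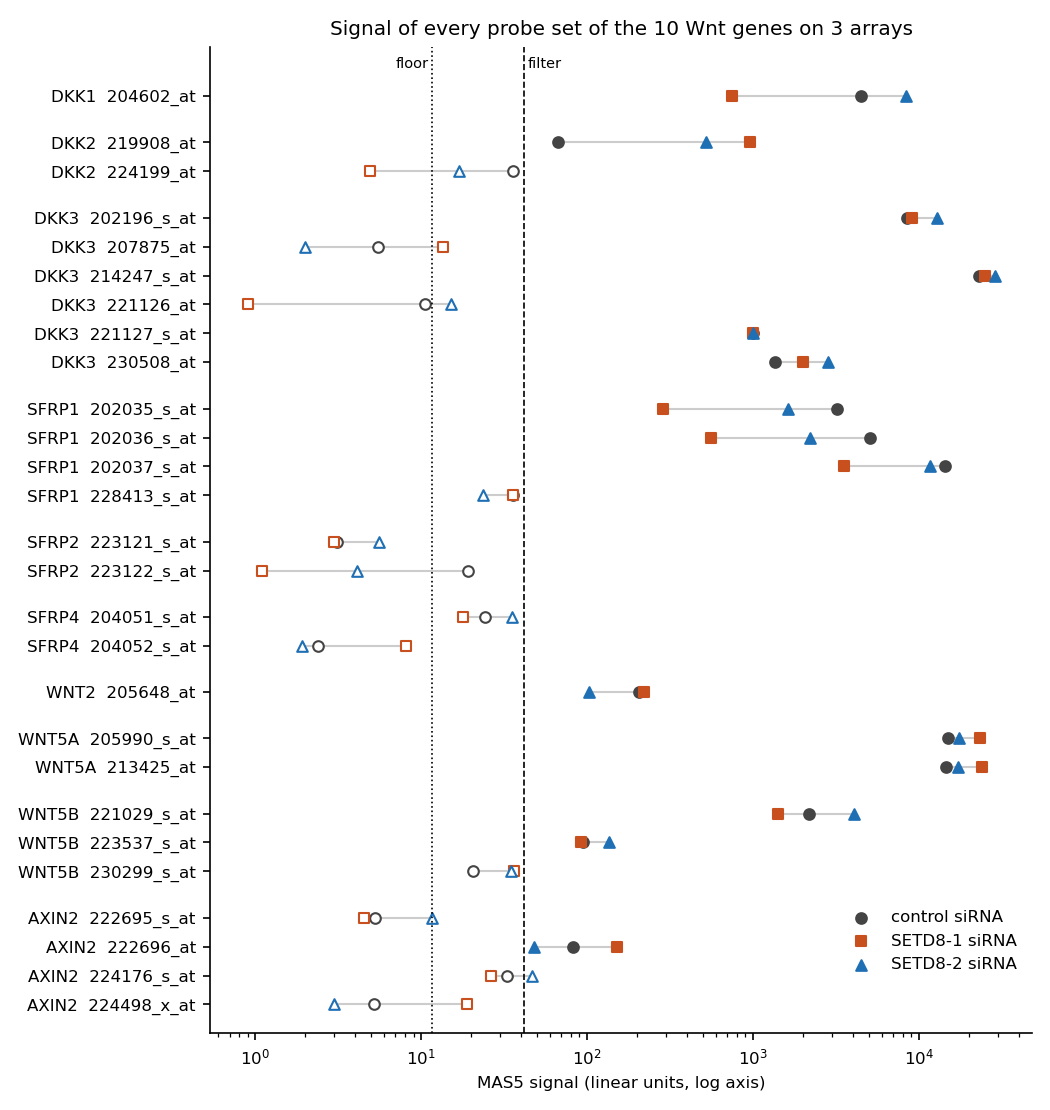
MAS5 signal (linear units on a log axis) of each of the 27 probe sets on the control, SETD8-1 and SETD8-2 arrays. Filled symbols mark the 15 probe sets above the filter and open symbols the 12 below it, and the grey line spans the 3 arrays. The widest gaps among the filled symbols are those of DKK1, DKK2 and SFRP1.

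DKK1, the best known secreted inhibitor of the LRP co-receptors, stood at opposite sides of the control with the 2 siRNAs. Its single probe set read 4462.2 on the control array, 750.5 with SETD8-1 and 8349.4 with SETD8-2. The SETD8-1 array was thus the low one and the SETD8-2 array the high one. DKK1 was 5.95-fold lower than the control with SETD8-1 (log2 difference -2.57) and 1.87-fold higher with SETD8-2 (0.90). Between the SETD8 arrays the gap was 11.1-fold (3.48), where 95% of the genes of similar signal were within 1.14. Of the 3077 genes in the same quartile of signal, 0.227% had a gap as large.

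DKK2, a relative of DKK1 that can either block or promote LRP signalling depending on the cell, was higher with both siRNAs. Its brighter probe set read 66.9 in the control, 959.6 with SETD8-1 and 520.6 with SETD8-2, so both SETD8 arrays were far above the control and the control was dim. The ratios were 14.3 and 7.78 (3.84 and 2.96 on the log2 scale). The second DKK2 probe set lay under the filter and ran the other way, with 35.8, 4.9 and 17.0. Averaged over both probe sets, the log2 differences shrank to 1.11 and 0.94. In the plane of both differences from the control, the gene nearest to DKK2 was MX1, an interferon-induced GTPase (4.09 and 3.10, at a distance of 0.28). The control signal of MX1 was dim, at 24.5. Next were MRGPRX3 (3.43 and 3.17, with a control signal under the floor) and ANGPTL4, an inhibitor of lipoprotein lipase (3.28 and 2.82). That likeness rests on 3 arrays.

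DKK3, the most divergent DKK, which is not established as a ligand of the LRP co-receptors, was bright on all arrays and differed little. Its brightest probe set had 23183.3 in the control, 24933.8 with SETD8-1 and 28622.6 with SETD8-2, or 0.11 and 0.30 on the log2 scale. The other 3 probe sets above the filter spread from 0.99-fold to 1.49-fold of the control with SETD8-1. With SETD8-2 they spread from 1.00-fold to 2.09-fold. The probe set with the largest difference read 1349.0, 2011.8 and 2822.8, and it is the one of these 4 without a suffix for shared transcripts. A second one read 1006.1, 994.9 and 1001.9, almost level. The probe sets of DKK3 therefore did not give 1 size of difference, and the mean over the 4 was 0.49 ± 0.46 (SD over probe sets) with SETD8-2.

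SFRP1, which binds Wnt ligands outside the cell, was lower with SETD8-1 on every probe set above the filter. The brightest had 14402.3 in the control, 3539.3 with SETD8-1 and 11722.5 with SETD8-2. The next had 5040.6, 557.1 and 2198.1, and the dimmest of the 3 had 3216.1, 286.2 and 1631.5. In all 3 the SETD8-1 array was the lowest and the SETD8-2 array lay between it and the control. The signals were 4.07-fold, 9.05-fold and 11.2-fold lower with SETD8-1, with a mean log2 difference of -2.90 ± 0.77 (SD over 3 probe sets). With SETD8-2 they were 1.23-fold, 2.29-fold and 1.97-fold lower, a mean of -0.82 ± 0.47 (SD over 3 probe sets). Probe sets of 1 gene share their RNA, so this SD covers neither culture nor array error. The fourth SFRP1 probe set was under the filter, with 35.6, 35.7 and 23.7. On its brightest probe set the gene was 3.31-fold higher with SETD8-2 than with SETD8-1 (1.73), a gap reached by 1.98% of genes of similar signal. The genes nearest to SFRP1 in both differences were WNK4 (-1.91 and -0.31), the sodium-calcium exchanger gene SLC8A1 (-2.04 and -0.18) and CCDC80 (-2.10 and -0.17).

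**Figure D2:**
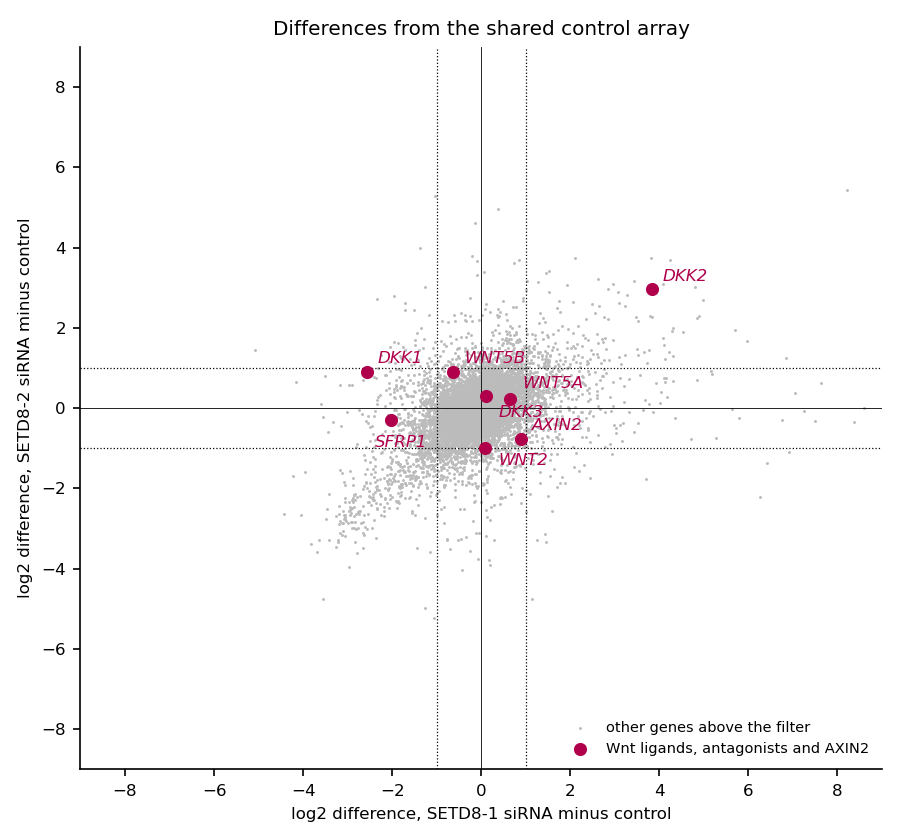
Log2 difference from the control with SETD8-1 (horizontal) and SETD8-2 (vertical) for 12307 genes above the filter (grey) and the 8 Wnt genes above it (red). Dotted lines mark 2-fold. DKK2 lies far to the upper right at 3.84 and 2.96, DKK1 to the upper left at -2.57 and 0.90, and SFRP1 to the left at -2.02 and -0.30. Both axes share the control array.

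WNT5A, a ligand known mainly for signalling through ROR receptors without beta-catenin, was bright and somewhat higher with both siRNAs. Its first probe set had 14911.5 in the control, 23304.0 with SETD8-1 and 17504.9 with SETD8-2. The second had 14596.2, 24059.9 and 17256.5. On both, the control was lowest and SETD8-1 highest. The ratios to the control were 1.56 and 1.65 with SETD8-1, and 1.17 and 1.18 with SETD8-2. The probe sets thus differed from each other by less than either differed from the control. The size was within the range common among genes of this signal, since 15.4% of them were as far from the control with SETD8-1 and 49.1% with SETD8-2.

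WNT5B, a close relative of WNT5A, had its SETD8 arrays on either side of the control. The brightest probe set had 2175.4 in the control, 1412.2 with SETD8-1 and 4073.2 with SETD8-2. That is 1.54-fold lower with SETD8-1 (-0.62) and 1.87-fold higher with SETD8-2 (0.90), the same order of arrays as DKK1. The gap between the SETD8 siRNAs was 2.88-fold (1.53), and 2.63% of genes of similar signal had one as large. A dimmer probe set had 95, 91.3 and 135.9, so there the lower value with SETD8-1 was slight (-0.06). The remaining one lay under the filter with 20.4, 36.3 and 34.6. With all 3 averaged, the SETD8-1 difference changed sign to 0.050.

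WNT2, a ligand of the beta-catenin branch that is needed for lung development, was dim on its single probe set. It had 206.6 in the control, 220.7 with SETD8-1 and 102.8 with SETD8-2. The control and SETD8-1 arrays were close and the SETD8-2 array was low. WNT2 was 2.01-fold lower than the control there (-1.01), a size that 18.9% of genes of similar signal reached, and it was under 2-fold with median scaling, quantile normalization or a pseudocount.

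AXIN2, the beta-catenin target, was near the lower limit of signal. Its one probe set above the filter had 81.9 in the control, 152.3 with SETD8-1 and 48.2 with SETD8-2, so that SETD8-1 was highest and SETD8-2 lowest. This is 1.86-fold higher (0.89) and 1.70-fold lower (-0.76), the reverse of the order seen for DKK1 and WNT5B. Another AXIN2 probe set just under the filter had the opposite order, 32.7, 26.3 and 46.4, and the remaining 2 did not exceed 19.0. The gap between the SETD8 siRNAs on the first (-1.66) was within the 2.21 that covers 95% of genes this dim.

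Promoter sequence could be read for 6 of the 10 genes, in 8 windows of the 250 bases before a RefSeq transcription start (RefSeq, GRCh38.p14). DKK2, DKK3, SFRP1 and AXIN2 had no entry. The windows of DKK1 and WNT5B are shown because these genes shared the order SETD8-2, control, SETD8-1. Capitals mark matches, on either strand, to CTTTGA (the core bound by TCF and LEF factors) or TATAAA (the TATA box), and the sequences run 5′ to 3′ along the gene's strand. The DKK1 window is chr10:52314031-52314280 (plus strand), and the WNT5B windows are chr12:1616806-1617055 and chr12:1628981-1629230 (plus strand).
DKK1: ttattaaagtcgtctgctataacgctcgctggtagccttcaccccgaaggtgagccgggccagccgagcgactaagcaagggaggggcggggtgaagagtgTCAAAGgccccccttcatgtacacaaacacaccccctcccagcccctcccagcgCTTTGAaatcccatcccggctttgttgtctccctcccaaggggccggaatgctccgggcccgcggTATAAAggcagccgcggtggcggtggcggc
WNT5B, window 1: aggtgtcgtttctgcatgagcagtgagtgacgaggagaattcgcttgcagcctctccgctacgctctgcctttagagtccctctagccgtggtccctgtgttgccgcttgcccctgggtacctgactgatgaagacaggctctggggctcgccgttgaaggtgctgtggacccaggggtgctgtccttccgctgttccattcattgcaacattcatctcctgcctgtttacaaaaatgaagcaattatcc
WNT5B, window 2: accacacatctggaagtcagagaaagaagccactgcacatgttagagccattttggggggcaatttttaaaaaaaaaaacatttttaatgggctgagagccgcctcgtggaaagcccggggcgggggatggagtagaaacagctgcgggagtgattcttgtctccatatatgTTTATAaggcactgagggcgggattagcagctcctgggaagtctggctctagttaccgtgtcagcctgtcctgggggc

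The DKK1 window held CTTTGA 2 times, once on the opposite strand at 149 to 144 bases before the start and once on the same strand at 95 to 90 bases, and a TATA box at 30 to 25 bases. Of 35116 promoter windows of this length, 11.2% held CTTTGA at least once and 0.977% at least 2 times. None of the other 7 windows of these genes held it. TATAAA was found in 10.7% of all windows, and among these genes in that of DKK1 and, on the opposite strand, in the second WNT5B window at 78 to 73 bases before the start. The E-box CACGTG, present in 6.34% of all windows, was in none of the 8. A match describes the letters only and says nothing of whether a factor was bound.

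Of the 8 genes above the filter, 3 were at least 2-fold from the control with SETD8-1: DKK2 was higher, and DKK1 and SFRP1 were lower. Over all 12307 genes above the filter, 13.2% were that far from the control with this siRNA. With SETD8-2 there were 2, DKK2 higher and WNT2 lower, against 11.1% of all genes. DKK2 was the 1 gene at least 2-fold higher with both, as were 1.5% of all genes. None of the 8 was at least 2-fold lower with both on its brightest probe set, where 3.23% of all genes were. SFRP1 was past that mark on another probe set above the filter, 9.05-fold and 2.29-fold lower. The median log2 difference of the 8 was 0.10 with SETD8-1 and 0.27 with SETD8-2, beside -0.02 and -0.01 over all genes.

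The SETD8 arrays differed from each other by at least 2-fold for 5 of the 8 genes, where 12.6% of all genes did so. DKK1, SFRP1 and WNT5B were higher with SETD8-2 (6.18% of all genes), and WNT2 and AXIN2 were higher with SETD8-1 (6.38%). For DKK1, SFRP1 and WNT5B the gap was beyond the 95th percentile of genes of similar signal. The fibroblast markers DCN (1.57) and LUM (1.15) were also at least 2-fold higher with SETD8-2 than with SETD8-1. The other fibroblast markers were under 2-fold either way, among them THY1 at 0.88, COL3A1 at -0.59 and FAP at -0.96. DKK1, WNT5B and AXIN2 were at least 1.5-fold from the control in opposite directions, a pattern found in 2.43% of all genes, and the order of DKK1 and WNT5B, lower with SETD8-1 and higher with SETD8-2, in 1.28%. The genes were picked with results of these data known, so these shares describe them and do not test them. KMT5A signal was lower by different amounts with the 2 siRNAs, and 1 culture of each cannot tell a difference between siRNAs from one between cultures.

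**Figure D3:**
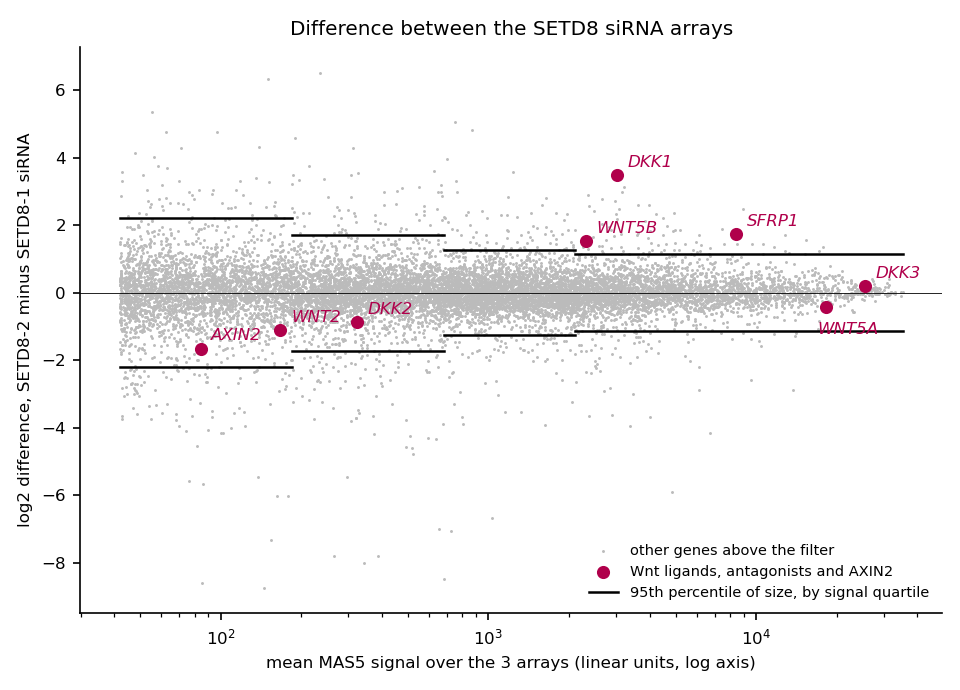
Log2 difference between the SETD8-2 and SETD8-1 arrays against mean MAS5 signal (linear units on a log axis) for the 8 Wnt genes (red) and the other genes above the filter (grey). Black lines mark the 95th percentile of the size of the difference in each signal quartile, 2.21 in the lowest and 1.14 in the highest. DKK1 at 3.48, SFRP1 at 1.73 and WNT5B at 1.53 lie outside them, and the other 5 lie inside.

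The rest of the pathway was read from lists of 113 genes in all, these 10 included. Of them 108 had a probe set used here, and 73 were above the filter. Of the 73, both siRNAs gave a higher signal by 2-fold or more for 2 and a lower one for 2. Among all genes these shares were 1.5% and 3.23%. DKK2 and BCL9L, a co-activator of beta-catenin, were the higher ones. The Frizzled receptor FZD5 and APCDD1, a membrane inhibitor of Wnt signalling, were the lower ones. With SETD8-1, 11 were higher and 10 lower, and with SETD8-2, 3 were higher and 9 lower, those that differed with both included. Among all genes 5.48% were higher and 7.75% lower with SETD8-1, and 4.46% and 6.65% with SETD8-2. The median log2 differences of the 73 were 0.01 and -0.05.

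Of the 19 ligands, 17 had a probe set used here and 7 were above the filter. For none did both siRNAs give a 2-fold difference the same way. WNT16 had 765.5 in the control, 1028.3 with SETD8-1 and 4026.5 with SETD8-2, or 5.26-fold higher with the latter. Its second probe set gave the same order with 172.4, 228.3 and 1035.6. WNT9A had 78.7, 239.8 and 156.5 (1.61 and 0.99), and passed 2-fold with both siRNAs after median scaling. WLS, the carrier that brings Wnt ligands to the cell surface, read 9256.3 in the control, 20187.2 with SETD8-1 and 8586.9 with SETD8-2. The other WLS probe sets also showed SETD8-1 as the one high array (1.04 and 1.41 on the log2 scale). NOTUM, a secreted enzyme that removes the lipid from Wnt ligands, was lower by a little with both, at -0.41 and -0.74.

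Of 12 antagonists on the wider list 5 were above the filter, 4 of them described above. The fifth, FRZB, is an SFRP relative and had 130.1, 118.4 and 61.7, or 2.11-fold lower than the control with SETD8-2. Its second probe set above the filter had 108.2, 111.3 and 39.3. Of the R-spondins, which amplify Wnt signals, none was above the filter. Their receptor LGR4 had -0.62 and 0.25, and ZNRF3, a ligase that removes Frizzled receptors, had -0.20 and -0.60.

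Of 18 receptors and co-receptors 17 had a probe set used here and 12 were above the filter. FZD5 was dim, with 107.1 in the control, 45.6 with SETD8-1 and 39.1 with SETD8-2, and it was under 2-fold with a pseudocount. The Frizzled genes FZD2 and FZD7 and the DKK receptor KREMEN1 were chosen after their values were seen. FZD7 had 8820.7, 2585.3 and 6974.4, or 3.41-fold lower with SETD8-1, and its second probe set gave -1.80 and -0.54. FZD2 had 3990.5, 1412.3 and 3335.2, or 2.83-fold lower with SETD8-1. For both, the SETD8-1 array was the low one, as for SFRP1. KREMEN1 had 168.2, 432.7 and 87.8, highest with SETD8-1 and lowest with SETD8-2. Its other probe sets were under the filter and did not all share that order. The co-receptor LRP6 differed by 0.49 and 0.16, and LRP5, which was dim, by -0.32 and 0.68.

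**Figure D4:**
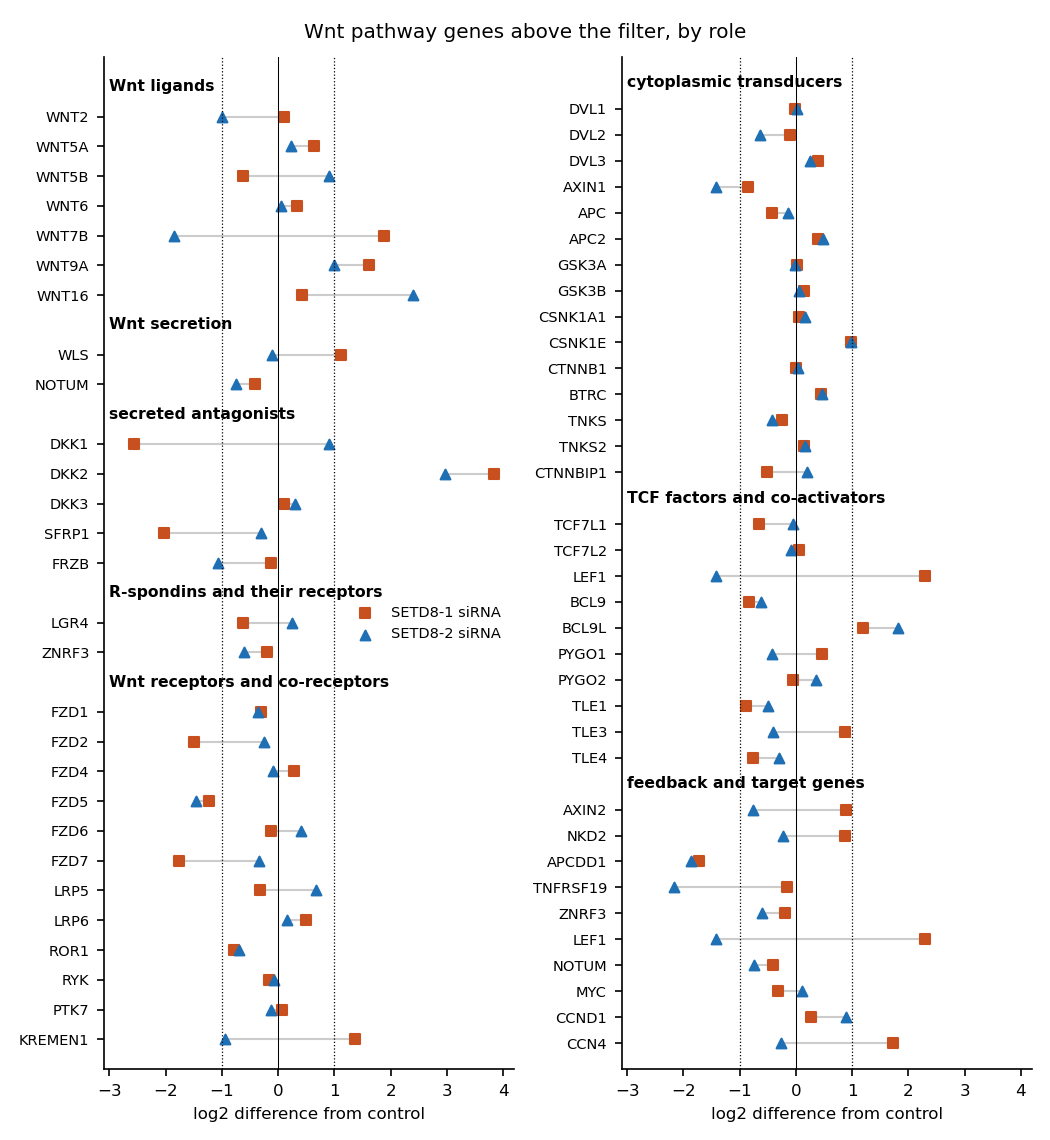
Log2 difference from the control with SETD8-1 (squares) and SETD8-2 (triangles) for genes above the filter, grouped by role, with LEF1, NOTUM and ZNRF3 in 2 groups each. Dotted lines mark 2-fold. Apart from AXIN1 with SETD8-2 (-1.41), the cytoplasmic transducers lie within the 2-fold lines. DKK1, LEF1, WNT5B, AXIN2, KREMEN1 and WNT7B are among the genes with their symbols on opposite sides of the control. WNT7B was dim, at 42.5 in the control, 157.3 with SETD8-1 and 3.5 with SETD8-2, the last under the floor.

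The cytoplasmic transducers carry the signal from the receptors to beta-catenin. Of 15 above the filter none was at least 2-fold from the control with SETD8-1 and 1 was with SETD8-2, AXIN1 at -1.41, beside 13.2% and 11.1% of all genes. CTNNB1, which encodes beta-catenin, had 7959.8, 7994.6 and 8192.1. CSNK1E, a kinase of the pathway, was just under 2-fold higher with both siRNAs (0.97 and 0.98), and passed it after median scaling. Its second probe set above the filter gave 0.96 with SETD8-1 and 0.63 with SETD8-2.

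Among 10 TCF factors and co-activators above the filter, BCL9L was at least 2-fold higher with both siRNAs, at 51.4, 118.2 and 180.1. A second BCL9L probe set read 56.6, 87.1 and 54.5 and was not higher with SETD8-2. LEF1, a DNA-binding partner of beta-catenin and itself one of its targets, had the same order of arrays as AXIN2. Chosen after its values were seen, it read 181.7 in the control, 897.5 with SETD8-1 and 67.5 with SETD8-2 (2.30 and -1.43). Its other 2 probe sets were under the filter, and one of them was highest with SETD8-2 at 41.6.

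Of the 16 feedback and target genes 15 had a probe set used here. The 10 above the filter had medians of 0.06 and -0.67. APCDD1 was the one at least 2-fold apart with both, at 480.5, 145.7 and 132.3, or 3.30-fold and 3.63-fold lower. Further members were chosen after their values were seen. CCN4, a secreted matricellular protein, was high with SETD8-1 alone, at 1344.3, 4429.2 and 1117.0, and its other 2 probe sets above the filter gave 1.87 and 2.05 for that siRNA. TNFRSF19 was low with SETD8-2 alone, at 4299.8, 3838.6 and 951.9, on this and on both other probe sets. NKD2, a feedback inhibitor that binds Dishevelled, had 199.5, 364.3 and 171.1. On their brightest probe sets AXIN2, LEF1, CCN4 and NKD2 had the order SETD8-1, control, SETD8-2, and the other genes of the list above the filter did not. For CCN4 (-0.27) and NKD2 (-0.22) the SETD8-2 array was only a little under the control. Another CCN4 probe set above the filter had the control lowest, at 196.8, 720.5 and 215.5. Of the 10, 5 were at least 2-fold lower with SETD8-2 than with SETD8-1 and 0 were higher, beside 6.38% and 6.18% of all genes. The median of that difference was -0.75, beside -0.003 over all genes, and was not tested. The list as a whole therefore did not share 1 order of arrays.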

How the data were processed

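The authors deposited an intensity for each probe set on each array, a linear signal made with MAS5 per the submitters' processing notes, with version and settings not given in the sources used here. Biotin-labelled cRNA came from 250 ng of total RNA, per the labels' protocols. Trimmed by 2% at each end, the arrays shared a mean signal of 497 and were not scaled again; a shift common to all genes would not be seen. No detection calls were used, so low signals may be background.

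Gene names came from GEO's annotation of the platform, with current RefSeq symbols (GRCh38.p14) for 41037 of the 41091 probe sets that had 1 symbol. Another 1801 had several symbols and 11721 were not listed, and these were left out. The floor of 11.7 is the 25th percentile of the table. The brightest probe set (by mean log2) stood for its gene, and 12307 of 19775 genes whose mean was at or above the probe set median were kept. Single arrays allow no replicate check, and no p-value was computed. The 95th percentile of the difference between the SETD8 arrays, by signal quartile, is given as a spread that holds array noise and any real difference.

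The members and lists were chosen with earlier results of these data known. Named pathway genes were those at least 2-fold in 1 direction with both siRNAs or, in a list without any, the 2 with the largest mean difference; other genes outside the 10, among them FRZB, LRP5, LRP6, CTNNB1, WNT7B and the cell type markers, were chosen after their values were seen. The alternatives tried were a pseudocount of 16, no floor, median scaling, quantile normalization, the mean of probe sets, leaving out shared ones (_s_at, _x_at, _a_at), other filters, and thresholds of 1.5-fold and 3-fold. The code was tested on copies of the control array with known fold changes and no noise, which checks the arithmetic only. Python 3.11.15, numpy 2.4.6, pandas 2.3.3 and matplotlib 3.10.9 were used.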

Additional observations from a re-analysis of the deposited data

Results flagged for a closer look

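DKK1, WNT5B and AXIN2 had a difference between the siRNAs in direction, each at least 1.5-fold from the control. DKK1 had log2 differences of -2.57 with SETD8-1 and 0.90 with SETD8-2. WNT5B had -0.62 and 0.90 in that order. AXIN2 had 0.89 and -0.76, on 1 dim probe set. With 1 array per siRNA the difference between the siRNAs was not tested.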

How the results depend on the processing

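Of 162 recomputed values of the member differences under 7 other settings, 161 kept their sign. Many of them could not differ from the main value, so this count says little of robustness. Leaving out the floor changed none, since no value of these brightest probe sets was under it. DKK1 and WNT2 have 1 probe set each, and DKK2 and AXIN2 have 1 above the filter, which is not a shared one. The exception was WNT5B with SETD8-1 (-0.62), at 0.050 with the mean of probe sets, where the gap between the siRNAs was 0.68. The same setting, which takes in probe sets under the filter, gave DKK2 1.11 and 0.94 and AXIN2 -0.39 between the siRNAs, and left 0 members higher with SETD8-2 and 0 with both. Over the probe sets above the filter alone, an alternative chosen after seeing the data, SFRP1 had -2.90 with SETD8-1. Without shared probe sets, DKK3 had 1.07 with SETD8-2, so that 2 members were higher with it, and 1 was lower with SETD8-1, since SFRP1 and WNT5B have no other probe set. Of the 9414 genes kept under that setting, 450 were higher with SETD8-2 and 751 lower with SETD8-1. WNT2 lost its place as the member lower with SETD8-2 (0 left) with median scaling, quantile normalization, the pseudocount, the 3-fold threshold or the filter at the 75th percentile. That filter removed DKK2, leaving 0 members higher with SETD8-1, 0 with SETD8-2 and 0 with both. At 1.5-fold, 3 of the 8 members were higher and 3 lower with SETD8-1, and 3 were higher and 2 lower with SETD8-2. Among all 12307 genes, 1567 were higher and 2020 lower with SETD8-1 at that threshold, and 1427 and 1812 with SETD8-2.

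Pathway genes higher with both siRNAs numbered 4 with median scaling or quantile normalization, 1 with the pseudocount, at 3-fold or with the probe sets above the filter averaged, 6 at 1.5-fold, and 0 with the mean of probe sets or the stricter filter. Those lower with both numbered 1 with the pseudocount, the mean of probe sets, shared probe sets left out or 3-fold, 6 at 1.5-fold and 0 with the stricter filter. Over all genes, 185 were higher and 398 lower with both. These counts were 565 and 907 at 1.5-fold, 57 and 191 at 3-fold, 460 and 737 without the filter, and 80 and 204 with the stricter one. No paired analysis was possible because each siRNA has 1 array.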

Other observations

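Of 16 listed genes of the branch of Wnt signalling that acts on cell polarity and calcium, 14 were above the filter, and with SETD8-1 the 2-fold mark was passed upward by 3 and downward by 4 of them, with SETD8-2 by 0 and 1. Among all genes 5.48% passed it upward and 7.75% downward with SETD8-1, and 4.46% and 6.65% with SETD8-2. No gene was past 2-fold in the same direction with both. NFATC2, a calcium-regulated transcription factor, read 109.6 on the control array, 666.7 with SETD8-1 and 137.3 with SETD8-2, and its second probe set above the filter had 104.9, 595.1 and 105.5. The calcium-dependent kinase gene CAMK2D, chosen after its values were seen, had 6502.8, 2260.9 and 8022.7, and its 3 other probe sets above the filter were also lowest with SETD8-1. VANGL2, a core polarity protein, was dim at 87.4, 48.8 and 23.0.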
